A study of Mus musculus with 18 samples.

Results

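Mouse chromosome 7 carries 5 clusters of KZFP/rGUs, which are genes of KRAB zinc finger proteins (KZFPs) and the genetic units related to them, recognised by arrays of C2H2 zinc fingers. The members described here came from the 560 KZFP/rGUs for which the study lists RNA-seq values, a part of the larger set it defined, and are those that lie inside 5 intervals of the mm9 assembly, 66 of 560 in all. Interval A (chr7:6190413-7320844) held 13 elements, interval B (chr7:24890182-25088337) 10, interval C (chr7:28487707-28775233) 9, interval D (chr7:30561870-30963840) 19 and interval E (chr7:49730185-50873141) 15. Within this list of 560, the members were chosen by position. These intervals are the clusters of chromosome 7 that result from joining at least 8 of these 560 elements less than 500 kb apart. Of the 66 elements, 57 overlapped an exon of an annotated gene, called the host gene here, and these were 56 genes, since Zfp420 hosted 2 elements. The other 9 had no host gene.

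The data were lists of ChIP-seq peaks, with 1 library per condition. KAP1 and SETDB1 were mapped in Hepa 1.6 cells, a hepatoma line from a C57L mouse with WT Kap1. H3K9me3 and H3K27ac were mapped in mouse embryonic fibroblasts (MEFs) of a C57BL/6 background, either Kap1 loxP/loxP cells without excision, called WT, or Kap1 KO cells. The study's methods describe the Kap1 KO cells as a clone that grew stably and was kept for many passages beside its loxP/loxP counterpart, so a difference between the MEF lists cannot be told apart from a difference between 2 cultures. KAP1 was not mapped in MEFs in the lists used here, so KAP1 and H3K9me3 are set side by side across 2 cell types.

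KZFPs bind DNA through their zinc fingers and recruit KAP1 (TRIM28), a co-repressor, through their KRAB domain. KAP1 in turn brings in SETDB1, the methyltransferase that deposits H3K9me3, a mark of silent chromatin, whereas H3K27ac marks active promoters and enhancers. The DNA that encodes the finger arrays of KZFP genes, near their 3′ ends, is itself known to be bound by KAP1 in several cell types.

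The lists held 13366 KAP1 peaks, 2957 SETDB1-listed peaks, 14425 WT and 4319 Kap1 KO H3K9me3 peaks, and 36275 WT and 36436 Kap1 KO H3K27ac peaks. Every one of the 2957 SETDB1 entries repeats a KAP1 peak with its position and score, so the list marks KAP1 peaks and adds no score of its own. Each peak carries a MACS score, which ranks peaks within a list. It stops near a ceiling of 3100, which 207 KAP1 peaks shared exactly. As a check of the cell type, H3K27ac was listed at the starts of 10 of 10 fibroblast genes in WT and 9 of 10 in Kap1 KO MEFs, where Pdgfra had none, and at 0 of 6 hepatocyte, 0 of 5 pluripotency and 0 of 4 leukocyte genes in either genotype. Read counts were not used, so depth is unknown, and signal too weak for the authors' threshold would be missing from a list.

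The members are repeats of a unit of 84 bases, which encodes a finger and the linker to the next. In 65 of 66 members at least 1 finger motif was found, with a median of 10 and at most 22, in Zfp780b. The spacing between neighbouring finger motifs was exactly 84 bases in 568 of 638 cases (89%). In all 56 members with a host gene and a finger, the fingers read on the strand of the gene. The complete unit of 84 bases nearest to the middle of the peak is shown for the 7 members with a KAP1 peak, and for Zfp111, which had a WT H3K9me3 peak and no KAP1 peak. The centre of the unit was 0.5 to 26 bp from the middle of the peak in 6 of them, 96.5 bp at Zfp30 and 118 bp at Gm10988, so the last 2 do not hold that point. They are written 5′ to 3′ on the strand that encodes the fingers, and capitals mark the codons of the 2 cysteines and 2 histidines that hold the zinc ion.

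Zfp30, chr7:30578083-30578166, plus strand: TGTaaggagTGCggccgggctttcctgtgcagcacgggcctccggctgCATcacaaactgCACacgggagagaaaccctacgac
Gm10988, chr7:30937444-30937527, plus strand: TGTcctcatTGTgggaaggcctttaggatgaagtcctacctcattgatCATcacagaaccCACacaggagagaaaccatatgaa
Zfp180, chr7:24890386-24890469, plus strand: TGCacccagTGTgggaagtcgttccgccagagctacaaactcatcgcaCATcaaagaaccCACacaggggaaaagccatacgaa
Zfp146, chr7:30947080-30947163, minus strand: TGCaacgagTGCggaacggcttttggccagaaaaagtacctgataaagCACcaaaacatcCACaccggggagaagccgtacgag
element without a host gene in interval C, chr7:28774187-28774270, minus strand: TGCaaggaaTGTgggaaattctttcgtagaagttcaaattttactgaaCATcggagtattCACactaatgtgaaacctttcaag
Zfp936, chr7:50445351-50445434, plus strand: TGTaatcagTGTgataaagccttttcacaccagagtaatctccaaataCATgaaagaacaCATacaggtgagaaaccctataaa
Zfp27, chr7:30679428-30679511, minus strand: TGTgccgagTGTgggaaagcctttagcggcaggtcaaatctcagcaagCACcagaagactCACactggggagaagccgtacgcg
Zfp111, chr7:24984073-24984156, minus strand: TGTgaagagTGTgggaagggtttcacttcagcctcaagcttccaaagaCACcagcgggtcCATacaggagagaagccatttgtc

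These stretches lie inside the coding sequence of Zfp30, Zfp180, Zfp146, Zfp936, Zfp27 and Zfp111, in an exon of the pseudogene Gm10988, and outside annotated genes for the element of interval C. Over the 28 pairs that the 8 units form, a median of 56.5% of the 84 bases was identical, from 47.6% between Zfp30 and the element of interval C to 71.4% between Zfp180 and Gm10988. Over all 568 units of the members, pairs from different members of the same interval shared a median of 61.9% of their bases, and pairs from different intervals 58.3%. Interval B had the most similar units, at 66.7%, and interval A the least, at 59.5%.

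A KAP1 peak lay over 7 of the 66 members, or 10.6% (exact 95% confidence interval 4.37% to 20.6%, which covers counting error only here and below). Over all 560 KZFP/rGUs the share was 22.5%. It was 22% over the 313 elements of other clusters and 27.6% over the 181 elements outside clusters. The 7 were Zfp30, Gm10988, Zfp180, Zfp146, Zfp27, Zfp936 and the element at chr7:28772934-28775233, which has no host gene. They were spread over 4 intervals, with 4 of 19 members in interval D, 1 of 10 in B, 1 of 9 in C, 1 of 15 in E and 0 of 13 in A. No test of these shares against one another was run, and the confidence intervals of the single clusters overlapped widely.

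**Figure D1:**
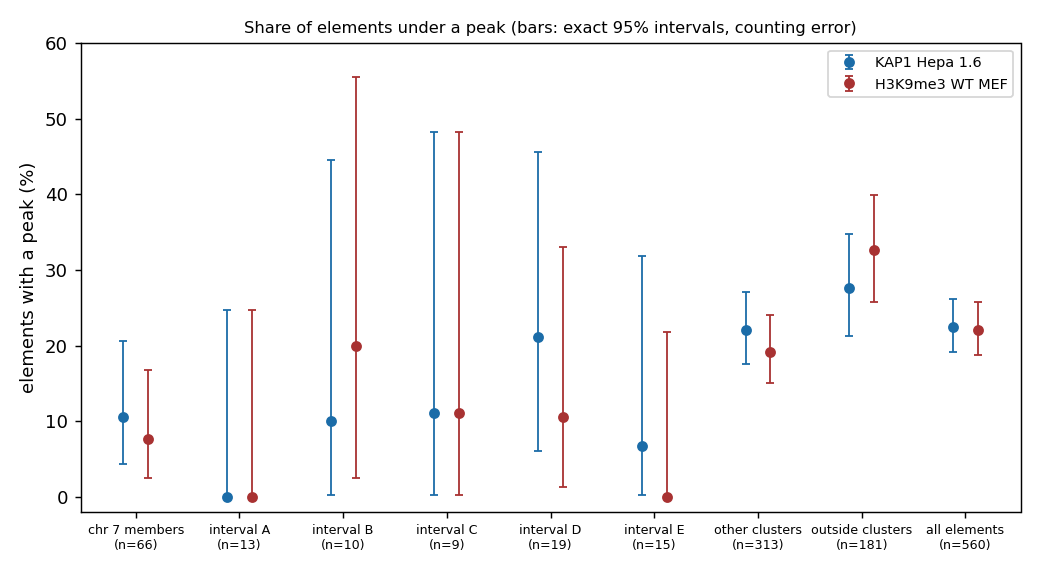
Share of elements under a KAP1 peak (Hepa 1.6) or a WT H3K9me3 peak (MEF), in percent, for the 66 members, for each of the 5 intervals, and for other sets of the 560 elements. Bars are exact 95% intervals for counting error; the members sit at 10.6% and 7.58%, and all 560 elements at 22.5% and 22.1%.

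Zfp30 carried the highest KAP1 score of the members. Its peak (chr7:30577383-30578673) scored 3100, a score exceeded by 4 of the 13366 peaks of the list and shared by 207. It covered 98.7% of the element, which is 1060 bp long and encodes 11 fingers in the last part of the gene (chr7:30569017-30579721, plus strand). Gm10988, at 902, and Zfp180, a KZFP gene at the edge of interval B, at 765, had peaks that covered all of their elements. These 3 members were the only ones with a SETDB1-listed peak (3 of 66, 4.55%, 0.947% to 12.7%), against 11.1% over all 560 KZFP/rGUs. Among elements with a KAP1 peak, SETDB1-listed peaks were found at 3 of 7 members and at 49.2% of all 126 such elements.

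The remaining KAP1 peaks had lower scores. Zfp146, known as OZF, a protein made almost entirely of zinc fingers, had 436. The element without a host gene had 141, Zfp936 had 122 and Zfp27 had 92, which puts 85.7% of the list above the last. The median over the 7 was 436, and over the 119 elements elsewhere with a KAP1 peak it was 289. The middle of the peak was close to the middle of the array in most of them. Measured along the direction of the fingers, the offset was -0.5 bp at Zfp146, -52 bp at Gm10988, -120.5 bp at the element of interval C, -129.5 bp at Zfp30 and -195.5 bp at Zfp180. At Zfp936 it was -467 bp and at Zfp27 652.5 bp, where the peak covered 29.5% of the element.

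Members without a KAP1 peak were mostly far from one. Of the 66, only 1 more had a KAP1 peak within 5000 bp, 13 had the nearest peak at up to 20000 bp and 45 (68.2%) farther away, with a median distance of 37147.5 bp. Over all 560 elements, 55% were farther than 20000 bp from a KAP1 peak and the median was 24999.5 bp. Interval D had the shortest median distance, 15941 bp, and interval C the longest, 76778 bp.

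In WT MEFs an H3K9me3 peak lay over 5 of 66 members, or 7.58% (2.51% to 16.8%), against 22.1% over all 560. The highest was at Zfp180, with a score of 995.02 and a width of 3136 bp, and 47 of the 14425 peaks of the list scored higher. Zfp146 followed at 203.16, then Zfp30 at 79.86, the element of interval C at 76.75 and Zfp111 at 63.74. The orders of the 2 marks thus differed, since Zfp30 had the highest KAP1 score and an H3K9me3 score near the middle of its list (50% of peaks scored higher), 440 bp wide. Of these 5 members, 4 also had a KAP1 peak in Hepa 1.6 cells (6.06% of the members, 1.68% to 14.8%, against 13.8% over all 560), and Zfp111 did not. Among the members with KAP1, 4 of 7 had H3K9me3, and among all 126 elements with KAP1, 61.1% did.

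No member had an H3K9me3 peak in the Kap1 KO list (0 of 66, 0% to 5.44%), where 0.179% of all 560 elements had one. The 5 members with a WT peak thus had none in Kap1 KO MEFs, and over all 560 elements 22% had a WT peak and no Kap1 KO peak. This is how most of the list behaved, since 96.8% of all WT H3K9me3 peaks shared no base with a Kap1 KO peak. The Kap1 KO list was the shorter one, and 89.3% of its peaks shared no base with a WT peak. The 2 lists thus had few places in common in either direction. In the 5 intervals together there were 9 WT and 2 Kap1 KO H3K9me3 peaks. Both Kap1 KO peaks lay in interval A and away from members. They scored 54.38, near the start of Clcn4-2, a chloride transporter gene, and 61.34, at 17489 bp from the start of the vomeronasal receptor gene Vmn2r30.

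**Figure D2:**
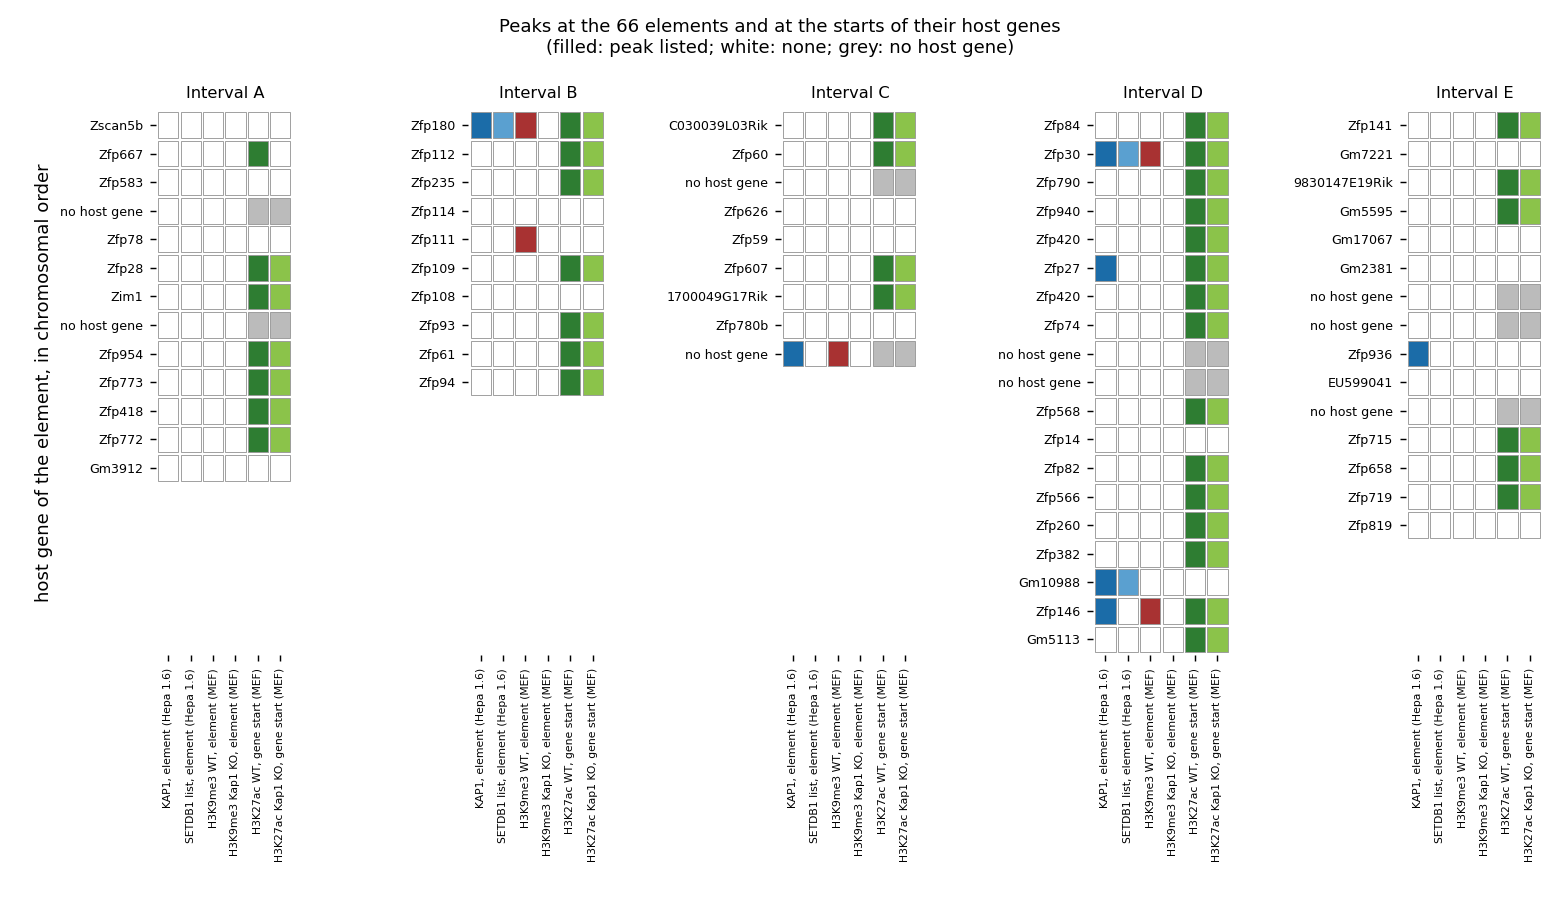
Map of the 66 members in chromosomal order within intervals A to E, with 1 row per element named by its host gene and 1 column per list; a filled box is a listed peak over the element (KAP1, SETDB1 list, H3K9me3) or within 1000 bp of the host gene start (H3K27ac), white is none and grey is no host gene. KAP1 is filled in 7 rows, WT H3K9me3 in 5 and Kap1 KO H3K9me3 in none, and Zfp667 has H3K27ac in WT only.

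H3K27ac was absent from the elements and frequent at the starts of their genes. It lay over 0 of 66 elements in WT and 0 of 66 in Kap1 KO MEFs, where 0.357% and 0.536% of all 560 elements had a peak. Within 1000 bp of the start of the host gene, a peak was listed for 38 of 56 genes in WT (67.9%, 54% to 79.7%) and 37 of 56 in Kap1 KO MEFs (66.1%, 52.2% to 78.2%). Over all 22350 protein-coding genes the shares were 52% and 50.6%, and over the 319 host genes of the other KZFP/rGUs 62.4% and 64.6%. The 38 starts fell under 37 distinct WT peaks, because Zfp146 and Gm5113 shared one. Interval D had H3K27ac at 14 of 16 host gene starts in both genotypes, B at 7 of 10, C at 4 of 7 and E at 6 of 12, while A had 7 of 11 in WT and 6 of 11 in Kap1 KO MEFs.

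The start of Zfp667 was the only one with a peak in 1 genotype. Its WT peak scored 432.82 and was 1741 bp wide, and the nearest Kap1 KO peak was 2179 bp upstream of the start. That upstream peak was present in both genotypes, with 1328.04 in WT and 1157.51 in Kap1 KO MEFs. No host gene had H3K27ac at its start in Kap1 KO MEFs only. Over all protein-coding genes, 2.6% of starts had a peak in WT only and 1.19% in Kap1 KO only, so 1 and 0 of 56 are numbers of the order of the background. At the host genes of the other KZFP/rGUs, 3 of 319 were WT only and 10 of 319 Kap1 KO only, all of the latter in other clusters.

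At the 37 starts with a peak in both genotypes, scores ran from 87.31 to 3100 in WT, where the median over the 38 starts was 1521.14, and from 85.71 to 3100 in Kap1 KO MEFs, with a median of 1117.66. For each start, the highest WT peak was set against the Kap1 KO peak that shares bases with it. The score was lower in Kap1 KO MEFs at 31 of the 34 starts that could be ordered, or 91.2%. Of the 11047 protein-coding gene starts with a peak in both genotypes, 4608 could be ordered, and 86.3% of those went the same way. The direction at the host genes is thus that of the gene starts that could be ordered. The other 3 host gene starts, Zfp568, Zfp146 and Gm5113, stood at the ceiling in both. Zfp180, Zfp84, Zfp27, Zfp74 and Zfp260 stood at the ceiling in WT only. This left almost no room for a higher Kap1 KO score, so their order and ratios are limited by the ceiling. Gene starts of other protein-coding genes at the ceiling in WT only are limited in the same way. Zfp568, a KZFP gene needed for early development that represses a placental transcript of Igf2, had the widest peak, 5473 bp in WT and 6115 bp in Kap1 KO MEFs. The median ratio of Kap1 KO to WT score was 0.716 over the 34 starts and 0.741 over protein-coding genes treated alike.

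The farthest from equal scores was Zfp82, with 883.9 in WT and 97.86 in Kap1 KO MEFs, a ratio of 0.111. Zfp109 went from 398.42 to 85.71 and Zfp141 from 1420.71 to 469.8. In all, 6 of 34 starts had a Kap1 KO score under 0.5 of the WT score (17.6%). Of the 4609 protein-coding gene starts compared in the same way, 21.6% did. Higher Kap1 KO scores were listed at 3 starts. These were Zim1, an imprinted gene expressed from the maternal allele, with 87.31 and 129.38, Zfp954 with 1087.22 and 1111.18, and Zfp658 with 663.13 and 677.19. With 1 library per genotype the spread of these scores between libraries could not be measured.

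**Figure D3:**
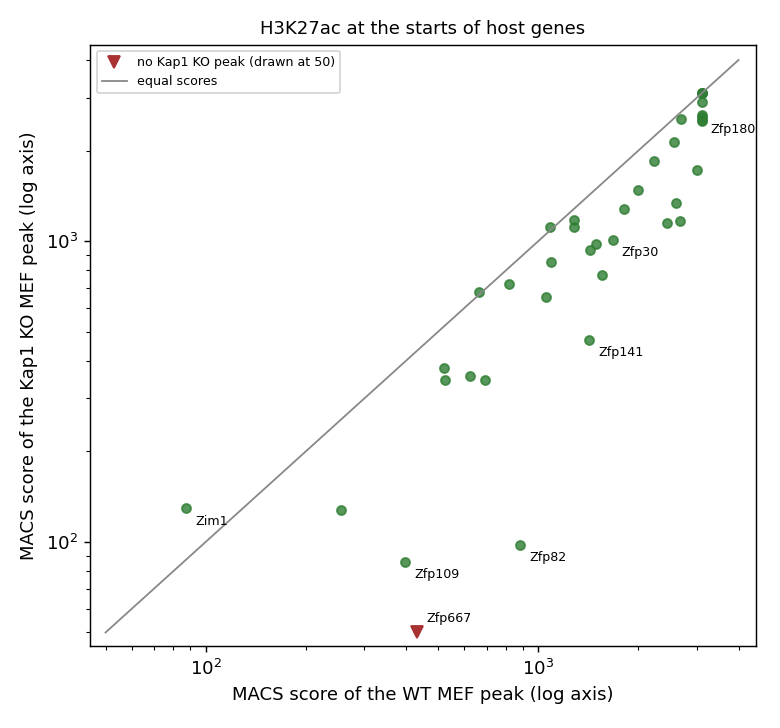
MACS score of the highest WT H3K27ac peak at the start of each host gene (x axis) and of the Kap1 KO peak that overlaps it (y axis), both axes logarithmic, with 1 point per gene and a line of equal scores. The triangle is Zfp667, which has no Kap1 KO peak and is drawn at 50. Of the points, 31 lie under the line, 3 above it and 3 at the ceiling of 3100 in both genotypes.

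Of the 8 members with a KAP1 or H3K9me3 peak over the array, 7 had a host gene, and 4 of these 7 had H3K27ac at the gene start in both genotypes (57.1%, 18.4% to 90.1%), against 67.9% in WT over all 56 host genes. Zfp30 had 1673.22 in WT and 1010.5 in Kap1 KO MEFs, Zfp180 had 3100 and 2590.51, and Zfp27 had 3100 and, for the overlapping Kap1 KO peak, 2529.18. That WT peak was the highest in the window and lay 822 bp from the Zfp27 start. The peak over the Zfp27 start itself scored 1945.04 in WT and 1378.56 in Kap1 KO MEFs. Zfp146 stood at 3100 in both. At these 4 genes the array lies between 7618 and 23685 bp from the start. Zfp936 and Gm10988 had no H3K27ac at the start in either genotype. At Zfp111, a peak of 2421.36 in WT and 1677.07 in Kap1 KO MEFs lay 2634 and 2810 bp inside the gene from its annotated start, outside the window used.

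KAP1 and H3K9me3 were few at either end of the host genes. Within 1000 bp of the start, KAP1 was listed at 5 of 56 genes (8.93%, 2.96% to 19.6%). The share was 17.3% over protein-coding genes and 11% over the host genes of the other KZFP/rGUs. The 5 genes were C030039L03Rik at 170, Zfp180 at 109, Zfp94 at 98, Zfp382 at 88 and Gm10988 at 902. Gm10988 is a gene of 872 bp whose start and array fall under the same peak. Within 1000 bp of the 3′ end it was listed at 4 of 56 (7.14%, 1.98% to 17.3%), against 3.13% of protein-coding genes and 15.4% of the host genes of the other KZFP/rGUs. These 4 were Zfp27, Gm10988, Zfp146 and Zfp936.

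For WT H3K9me3, 2 of 56 host genes had a peak at the 3′ end, Zfp180 and Zfp146 (3.57%, 0.435% to 12.3%), against 1.6% of protein-coding genes and 19.7% of the host genes of the other KZFP/rGUs. It was listed at 0 of 56 starts (0% to 6.38%), where 2.02% of protein-coding genes and 7.52% of the other host genes had one. Neither H3K27ac list had a peak at a 3′ end of the 56 host genes (0% to 6.38%). Over protein-coding genes, 11.9% of 3′ ends had one in WT and 10.9% in Kap1 KO MEFs. Of the host genes of the other KZFP/rGUs, 4 of 319 had one in WT and 5 of 319 in Kap1 KO MEFs. The Kap1 KO H3K9me3 list also had no peak at the 56 3′ ends. It had one at 0.389% of protein-coding 3′ ends and at 0 of 319 of the other host genes.

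**Figure D4:**
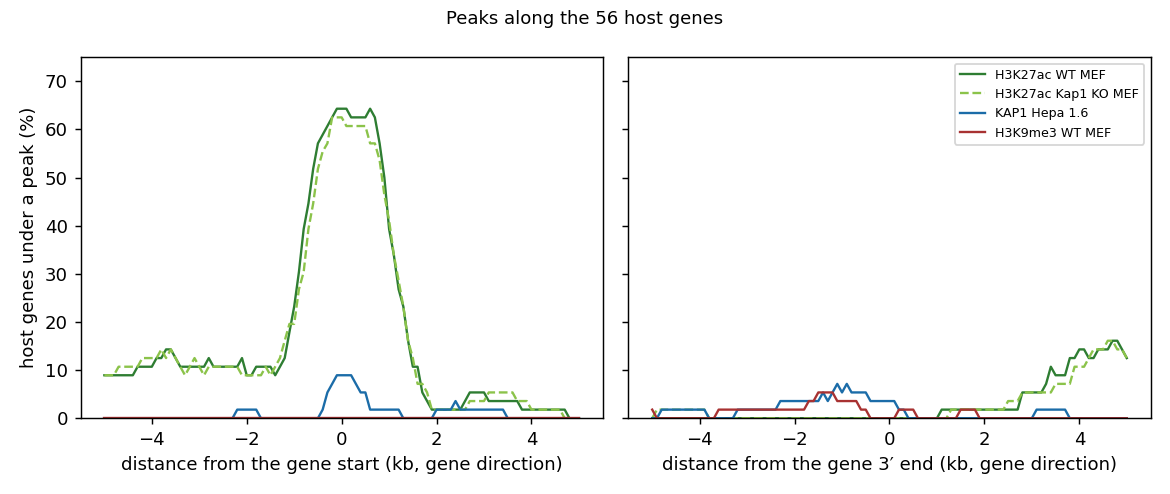
Share of the 56 host genes under a peak, in percent, at each distance from the annotated gene start (left) and 3′ end (right), in kb along the direction of the gene, for 4 lists. H3K27ac reaches 64.3% in WT and 62.5% in Kap1 KO MEFs near the start, KAP1 reaches 8.93% at the start and 7.14% near the 3′ end, and WT H3K9me3 is at 0 around the start and reaches 5.36% upstream of the 3′ end.

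The study's RNA-seq values of the 66 elements were used to order them only. No such order was made over all 560 elements, so whether the splits below are particular to the members was not tested. They count elements, so the start of Zfp420 counts for each of its 2 elements. Of the 33 members with the higher expression in WT MEFs, 29 had a WT H3K27ac peak at the host gene start (87.9%, 71.8% to 96.6%). Of the 33 with the lower expression, 10 had one (30.3%, 15.6% to 48.7%), and 8 of these 33 had no host gene, against 1 of the others. All 5 members with WT H3K9me3 over the array were among the 33 with the higher expression (15.2%, 5.11% to 31.9%, against 0%, 0% to 10.6%), but the count fell to 2 when MEF peaks scoring under 80, the cutoff that the methods state, were left out. KAP1 in Hepa 1.6 cells lay over 4 of the 33 with the higher expression in WT liver (12.1%, 3.4% to 28.2%) and 3 of the 33 with the lower one (9.09%, 1.92% to 24.3%). The order by MEF expression differed among intervals, with 13 of 19 members of D and 6 of 9 of C, but 3 of 13 of A, in the higher part.

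The intervals as a whole held 24 KAP1 peaks, of which 7 lay over members and 17 away from them. This was 7.59 peaks per Mb, against 5.06 per Mb over the genome. Interval D alone had 10, or 24.9 per Mb. WT H3K9me3 peaks numbered 9, or 2.85 per Mb, against 5.47 per Mb over the genome and 1.44 per Mb over chromosome 7, and 5 of the 9 lay over members. Near Zfp146, peaks of 50.71 and 52.77 extended the mark 1994 and 646 bp from the array.

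The highest KAP1 peak away from a member was at the start of Peg3 in interval A (chr7:6681610-6683130), an imprinted gene expressed from the paternal allele that encodes a zinc finger protein. It scored 2041, was SETDB1-listed and had H3K27ac at the ceiling of 3100 in both genotypes. For Usp29, a deubiquitinase gene of the same imprinted domain, no list had a peak within 1000 bp of the annotated start used here, chr7:6913871. Whether the gene has another start under a peak was not tested. In interval E the highest was at chr7:49778323-49778973, with 393, SETDB1-listed and 17227 bp from the start of Zfp141. In interval D it was at chr7:30900160-30900800, with 135, and in C at chr7:28494584-28495236, with 108, while B had none away from its members. The WT H3K9me3 peak away from members with the highest score was in A (chr7:7230576-7231089), with 90.1. It lay within a SETDB1-listed KAP1 peak of 194, and H3K27ac was listed there at 65.42 in WT and 63.48 in Kap1 KO MEFs. In C it was at chr7:28561460-28561829, with 68.02, and in D it was the peak of 52.77 near Zfp146.

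H3K27ac peaks of 1 genotype only were few in the intervals. Of 68 Kap1 KO peaks, 7 shared no base with a WT peak (10.3%, 4.24% to 20.1%), and of 64 WT peaks, 4 shared none with a Kap1 KO peak (6.25%, 1.73% to 15.2%), against 22.8% of either list over the genome. Many peaks of the intervals lay at gene starts, and the genome shares were not matched for this. Over all protein-coding genes, 2.6% of starts had a peak in WT only and 1.19% in Kap1 KO only. The highest Kap1 KO only peak, 232.83, was at the start of Iglon5, a cell adhesion gene of interval E that hosts no element. Interval A had Kap1 KO only peaks of 124.26, at 3911 bp from the start of the olfactory receptor gene Olfr1344, of 57.31 and of 50.27. Interval D had 61.77, in an exon of Zfp566 and 3075 bp from its start, and E also had 59.74 within Iglon5. Apart from that of Zfp667, the WT only peaks scored 73.76 in A, 70.61 in C and 78.98 in E, the last in an intron of Gm2381. These, and the Kap1 KO only peaks of 57.31, 50.27, 61.77 and 59.74, scored under 80, the cutoff that the methods state. With MEF scores of at least 80 the Kap1 KO only count was 6, including peaks whose WT partner fell under the cutoff.

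One Kap1 KO only peak met a KAP1 peak. It scored 128.84 (chr7:50825848-50826989) and shared bases with a SETDB1-listed KAP1 peak of 286 (chr7:50826027-50827005) in an intron of Zfp658, 1622 bp from the array. No WT or Kap1 KO H3K9me3 peak was listed there. The 150 bases at the middle of the KAP1 peak are shown because this was the only place in the 5 intervals where a KAP1 peak and a Kap1 KO only H3K27ac peak coincided, and capitals mark the longest run made of C and T alone, 92 bases.

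Zfp658 intron, chr7:50826442-50826591, plus strand: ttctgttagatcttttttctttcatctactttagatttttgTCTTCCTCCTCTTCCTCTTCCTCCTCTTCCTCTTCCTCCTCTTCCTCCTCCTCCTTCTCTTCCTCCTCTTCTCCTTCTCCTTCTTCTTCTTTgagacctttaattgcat

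Of these 150 bases, 132 (88%) are C or T, and no CG is present. How reads from such a repeat were placed was not tested.

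The protein-coding genes of the intervals that host no element were 33, among them 8 olfactory and 4 vomeronasal receptor genes. H3K27ac was listed at 5 of the 33 starts in WT (15.2%, 5.11% to 31.9%) and 6 in Kap1 KO MEFs (18.2%, 6.98% to 35.5%), and at none of the receptor genes in WT. KAP1 was listed at 2 starts, those of Peg3 and of Etfb, which encodes a subunit of the electron transfer flavoprotein, at 85. The start of Siglecg, which encodes an inhibitory lectin of B cells, had H3K27ac scores of 71.32 in WT and 389.46 in Kap1 KO MEFs, and that of Etfb had 1802.74 and 504.33.

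The sequence of the arrays differed among the intervals in measures that no peak list used. The linker that follows a finger is often encoded by DNA that begins ACNGGNGA, where N is any base, and ACTGGAGA is 1 spelling of it. Searched at bases 64 to 71 of the 84-base units, on the strand that encodes the fingers, the general form was found in 348 of 568 units of the members (61.3%) and in 77.1% of the 4344 units of all 560 elements. The spelling ACTGGAGA was found in 19.7% of the units of the members and 38.2% of all units. Interval E had it in 61 of 149 units (40.9%), A in 22.1%, C in 10.7%, D in 9.7% and B in 9.09%, where ACAGGAGA was the most frequent spelling, at 28.6%. Interval C had the general form in 20.6% of its units, the lowest share of the 5, and B in 83.1%, the highest.

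Interval E also had the arrays with the lowest share of G and C, a median of 36.9%, against 52.4% in B, 48.1% in D, 45.4% in A and 42.5% in C. The 7 members with a KAP1 peak had a median of 49.9% and the 59 without one 45.4%. They had a median of 11 and 10 fingers and a median length of 1060 and 988 bp. ACTGGAGA followed the finger in 13% of the units of the former and 20.8% of those of the latter. These are descriptions of 7 and 59 arrays that share sequence within an interval, and no test was run on them.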

How the data were processed

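The values used were the MACS scores that the authors deposited with the peaks of 6 ChIP-seq libraries, 1 per condition. Per the labels and the study's methods, reads were mapped to mm9 with Bowtie 2 (2.2.1 in the submitters' processing notes) and MACS 1.4 called the peaks with total input as control. The methods state a cutoff of 80, which the Hepa 1.6 lists keep, while scores in the MEF lists begin between 50 and 50.03, and no peak was left out. Scores of H3K27ac at a gene start were compared between the WT peak and the Kap1 KO peak overlapping it. Scores follow depth, which is unknown. They served to rank peaks within a list and, for H3K27ac, were also set side by side between genotypes, without correction for depth.

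Elements were the 560 KZFP/rGUs of the study's expression list, a part of its full set, with coordinates as printed there, and clusters were rebuilt from these 560 as at least 8 elements less than 500 kb apart (379 elements). Genes, with their starts and 3′ ends, came from GENCODE M1 and sequences from the NCBIM37 genome, both mm9. A host gene shares exon bases with the element, and protein-coding genes took precedence. A peak counted with 1 shared base, or within 1000 bp of a gene end. Finger motifs were searched in translated DNA in 6 frames. Shares carry exact Clopper-Pearson 95% intervals. No p-value was computed. The members and lists were chosen with earlier results of these data known.

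Genes named were, per interval, the 4 members with the highest KAP1 score and the 4 with the highest WT H3K9me3 score, members with H3K27ac in 1 genotype only or with a Kap1 KO H3K9me3 peak, Zfp30, the Peg3 domain (3 of 6 names matched: Peg3, Usp29 and Zim1), and the highest peak away from members. Other genes were named after their values were seen. The liver, ES cell, input and RNA-seq libraries were not analysed here. Python 3.11.15, numpy 2.4.6, scipy 1.17.1 and matplotlib 3.10.9 were used, and the overlap and finger searches were tested on simulated data.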

Additional observations from a re-analysis of the deposited data

How the results depend on the processing

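The 19 counts were recomputed under 87 alternatives in all, and 70 values stayed within 1.5 times the count in the report. The other 17 were lower. For all of them but the Kap1 KO only H3K27ac count this holds by construction, since they kept fewer peaks. A count of peaks in 1 genotype only can move either way when both lists are cut. With the upper 50% of every list, the WT only count rose from 4 to 5. With the upper 50% of every list by score, KAP1 lay over 4 members, WT H3K9me3 over 2 (both of them among the 33 members with the higher MEF expression) and both marks over 2, KAP1 was at 2 host gene starts and 2 3′ ends, and the intervals held 10 KAP1, 3 WT H3K9me3 and 1 Kap1 KO only H3K27ac peaks. With MEF scores of at least 80, WT H3K9me3 lay over 2 members, 2 with KAP1 and 2 of the higher MEF expression, and 3 peaks remained in the intervals. With as many WT as Kap1 KO peaks these were again 2, 2 and 2, and 2 peaks, so the WT H3K9me3 count of 5 rests on 3 peaks scoring under 80, at Zfp30, Zfp111 and the element of interval C, and in each of these settings 0 members had a Kap1 KO H3K9me3 peak. The host gene starts with H3K27ac ranged from 30 to 43 in WT and from 28 to 43 in Kap1 KO MEFs, and the values for a window of 5000 bp (43 and 43) and for the start of any transcript (39 and 38) were chosen after seeing the data. No paired analysis was possible because each condition had 1 library and the peak lists carry no replicate numbers. Depth is unknown, and a peak under the threshold cannot be told apart from no signal.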
